A study of Mus musculus with 16 samples.

Results

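Chemokines are small secreted proteins that draw leukocytes into tissues through receptors on the leukocyte surface. In the heart, resident macrophages, endothelial cells, fibroblasts and mural cells are known sources, and CC and CXC chemokines are classed by the spacing of their leading cysteines. Neutrophils answer mainly to CXC ligands of the receptor Cxcr2, monocytes to ligands of Ccr2, and Cxcl12 acts through Cxcr4.

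Transcripts of 10 chemokine genes, Ccl2, Ccl6, Ccl7, Ccl9, Ccl17, Cxcl1, Cxcl5, Cxcl12, Cxcl14 and Cx3cl1, were followed in the left ventricle after abdominal surgery. They were taken from a table of 57143 genes, which held another 31 chemokine ligand genes. The 10 genes were chosen by symbol with the measured values of all 16 libraries already known, and which values decided the choice is not recorded. Their levels, fold changes and counts past the threshold are therefore given as descriptions, with no p-values, and nothing about the group of 10 is inferred from them.

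The mice were male C57BL/6 animals operated on the abdomen under sevoflurane, an inhaled anaesthetic, and the series title names the calcium-binding proteins S100A8/A9 and heart injury after surgery outside the heart. RNA of the left ventricle was sequenced at 0h, 3h, 24h and 7d, with 4 libraries per time. All 4 groups carry the label of surgery, 0h included, and the age of the mice is not given in the labels. Nothing in the labels states that each library is a different mouse, so p-values measure the spread between these samples, which may be technical.

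Total counts ran from 8.31 to 12.9 M per library (M, mega). Summed over 8 cardiomyocyte markers, the level was 58710 to 80168 TPM over the 16 libraries, and none of these markers of heart muscle was at 0 in any group. TPM are transcript levels scaled to gene length and library size. Summed over 6 hepatocyte markers it was 3.20 to 74.1 TPM at 3h, against at most 1.01 TPM at 0h, so results at 3h were also computed without the 2 3h libraries richest in these markers. Of 16866 genes tested with edgeR's quasi-likelihood test, 5.04% passed an adjusted p of 0.05 at 3h against 0h, 17.4% at 24h against 0h and 0.86% at 7d against 0h. These comparisons share their 0h libraries. In whole-tissue RNA, fewer cells of a type and less RNA per cell cannot be told apart.

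Most of the 10 genes lie in clusters. On GRCm38, Ccl2 (chr11:82035571-82037453, plus strand) and Ccl7 (chr11:82045712-82047525, plus strand) are 8258 bases apart. Ccl9 (chr11:83572919-83578636) and Ccl6 (chr11:83587882-83593087) are 9245 bases apart on the minus strand. Cxcl5 (chr5:90759360-90761624) and Cxcl1 (chr5:90891241-90893115) are 129616 bases apart on the plus strand. Cx3cl1 (chr8:94772009-94782427) and Ccl17 (chr8:94810453-94812036) are 28025 bases apart on the plus strand. Cxcl12 (chr6:117168535-117181367, plus strand) and Cxcl14 (chr13:56288643-56296551, minus strand) lie alone among the 10.

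RefSeq promoters on GRCm38.p6, 250 bases before to 50 bases after the start, were matched for 7 of the 10 genes, all but Ccl2, Ccl7 and Cxcl5. They were searched on both strands for the kappa-B motif bound by NF-kappa-B (GGG, 2 free bases, TT, 1 free base, CC), the AP-1 motif TGANTCA, the TATA box TATAAA and the GC box GGGCGG. Across 32851 promoters of the same length, the 4 motifs were found in 4.79%, 7.81%, 13.6% and 35.7%, in that order. A kappa-B match was present in 2 of the 7, Cxcl1 and Ccl9, where plus means the gene's own strand and minus the strand opposite to it. Cxcl1 held GGGTGTTTCC on minus, 89 bases before the start, and GGGAATTTCC on plus, 71 bases before it. Ccl9 held GGGGCTTTCC on minus 35 bases before the start, an AP-1 match 53 bases before it and 3 TATA-box matches, of which those 94 and 92 bases before the start overlap. GC boxes numbered 5 in Cxcl12, 3 in Cxcl14 and 1 in Cx3cl1, and Cx3cl1 also held a TATA box. Ccl6 and Ccl17 held none of the 4 motifs in this window. The promoters below are those of the pair Ccl9 and Ccl6, whose levels moved alike, and of Cxcl1, which holds a pair of kappa-B matches. Any part of these motifs in the levels was not tested. Capitals mark the kappa-B matches, each written as it reads on the gene's own strand.
Cxcl1 promoter, chr5:90890995-90891294, plus strand: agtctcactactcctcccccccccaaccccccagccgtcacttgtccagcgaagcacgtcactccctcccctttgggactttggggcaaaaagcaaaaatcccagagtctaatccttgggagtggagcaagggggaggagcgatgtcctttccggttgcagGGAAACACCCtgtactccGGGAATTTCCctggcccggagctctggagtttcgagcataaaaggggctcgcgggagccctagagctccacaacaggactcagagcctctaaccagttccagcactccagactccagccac
Ccl9 promoter, chr11:83578587-83578886, minus strand: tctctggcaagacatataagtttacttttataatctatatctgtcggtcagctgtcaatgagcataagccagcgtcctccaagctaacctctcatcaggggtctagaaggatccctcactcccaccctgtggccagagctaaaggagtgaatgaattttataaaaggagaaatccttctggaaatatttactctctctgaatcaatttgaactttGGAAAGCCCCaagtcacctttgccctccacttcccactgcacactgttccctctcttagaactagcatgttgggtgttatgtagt
Ccl6 promoter, chr11:83593038-83593337, minus strand: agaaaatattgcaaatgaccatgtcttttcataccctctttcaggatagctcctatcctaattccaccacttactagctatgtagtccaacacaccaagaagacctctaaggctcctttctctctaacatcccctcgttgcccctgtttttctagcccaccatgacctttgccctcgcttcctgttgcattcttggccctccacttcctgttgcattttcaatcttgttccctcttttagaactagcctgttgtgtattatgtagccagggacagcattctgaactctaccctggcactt

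Averaged over the 16 libraries, Ccl6, Cxcl14 and Cxcl12 led with 73.1, 63.8 and 62.2 TPM. Their order changed with time, since Ccl6 had the highest mean of the 3 at 3h and 24h, at 100 and 82.5 TPM, but the lowest at 0h and 7d, at 52.3 and 57.1 TPM. Ccl9 followed at 29.9 TPM, Ccl2 at 16.3 TPM and Ccl7 at 15.7 TPM. Cx3cl1 at 6.93 TPM, Cxcl1 at 4.01 TPM, Cxcl5 at 1.06 TPM and Ccl17 at 1.02 TPM stood lowest. The leading 3 overlapped in their ranges over libraries, as did Ccl2 with Ccl7 and Cxcl5 with Ccl17. The 10 genes together summed to 255 ± 37.0 TPM at 0h, 280 ± 33.9 TPM at 3h, 308 ± 146 TPM at 24h and 253 ± 24.2 TPM at 7d (SD, n = 4 each). Without 24h replicate 2 the sum at 24h was 236 ± 31.0 TPM (SD, n = 3), below the 0h mean. They made up 44.6%, 50.4%, 55.8% and 46.7% of the summed TPM of all chemokine ligand genes at these times.

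**Figure D1:**
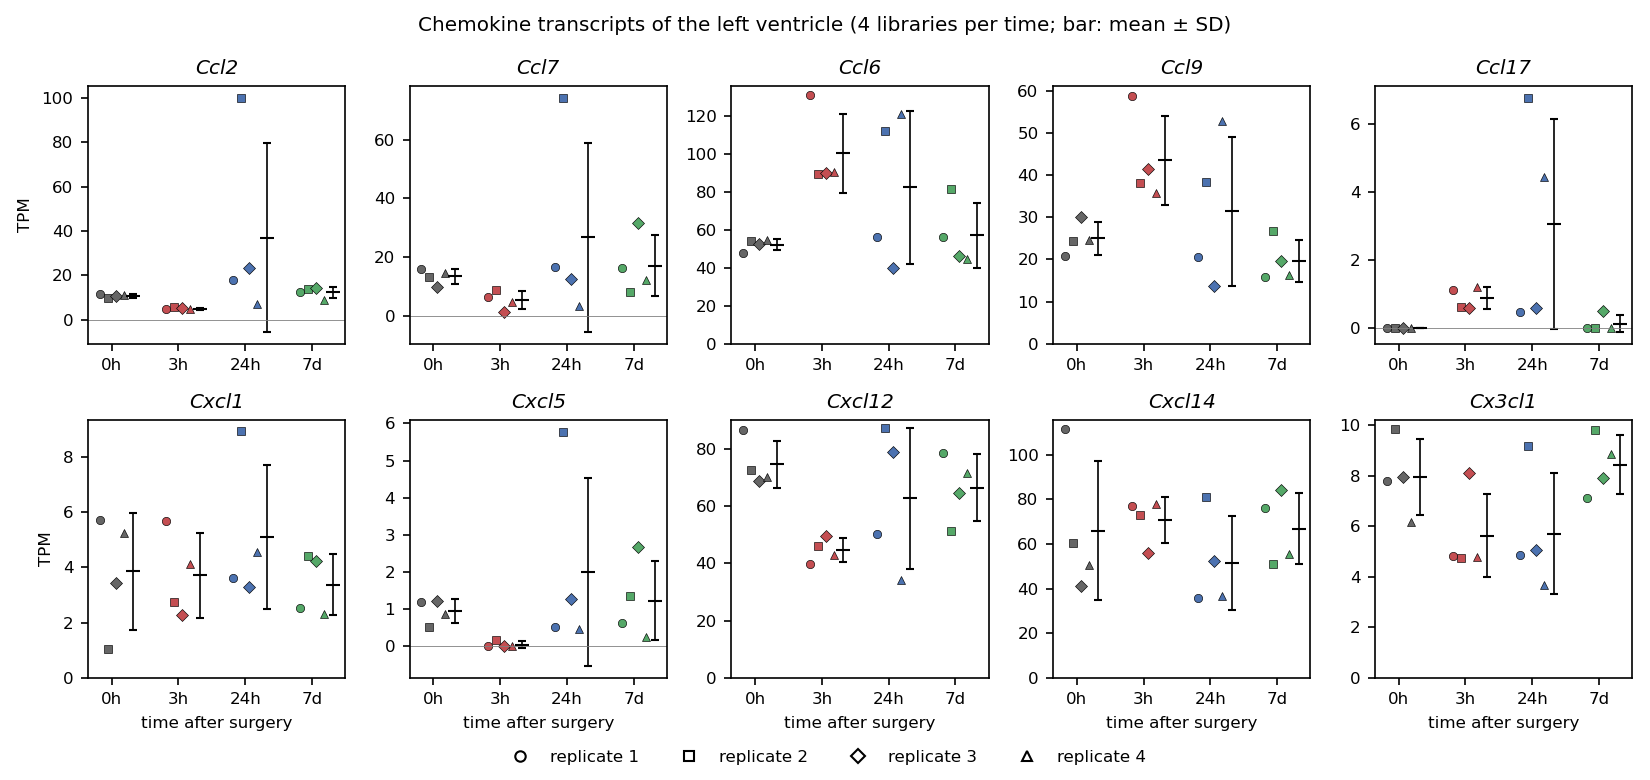
TPM of each of the 10 chemokine genes (vertical axis, 1 panel per gene) by time after surgery (horizontal axis). Points are libraries with 1 symbol per replicate number, and bars are the mean ± SD of 4 libraries. Ccl6 and Ccl9 libraries at 3h lie above those at 0h, Cxcl12 libraries at 3h lie below those at 0h, and at 24h replicate 2 reaches 100 TPM for Ccl2 and 74.2 TPM for Ccl7.

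Ccl2 and Ccl7, the neighbouring genes for the monocyte attractants that bind Ccr2, were low at 3h and widely spread at 24h. Ccl2 had 4.81, 5.66, 5.11 and 4.62 TPM at 3h, against 11.6, 9.66, 10.6 and 11.3 TPM at 0h. All 4 libraries at 3h were below all 4 at 0h, with a log2 fold change of -0.91 (SE 0.66) that did not pass the threshold. At 24h Ccl2 had 17.9, 100, 23.2 and 7.00 TPM, so that replicate 2 was far above the others and replicate 4 below the 0h range. The log2 fold change of 24h against 0h was 1.91 (SE 0.56), past the threshold, and 0.80 (SE 0.27) without 24h replicate 2. It stayed past the threshold without that library, but no longer passed when any 1 of the 4 0h libraries was left out, the log2 fold change over all 8 omissions lying between 0.80 and 2.23. Against 3h, Ccl2 at 24h was higher by 2.82 (SE 0.61) on the log2 scale, past the threshold and with no overlap, and by 1.71 without 24h replicate 2. Without the 2 3h libraries richest in hepatocyte markers this difference no longer passed. Ccl2 had 12.5, 13.7, 14.4 and 8.87 TPM at 7d, overlapping 0h, with a log2 fold change of 0.30 (SE 0.59). Set against 24h, the 7d level was lower by a log2 fold change of -1.61 (SE 0.54), and by -0.50 (SE 0.27) without 24h replicate 2, neither past the threshold.

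Ccl7 had 6.48, 8.84, 1.53 and 4.63 TPM at 3h, against 15.9, 13.3, 9.89 and 14.8 TPM at 0h. The 3h libraries were all lower in TPM, with a log2 fold change of -1.14 (SE 0.81) that did not pass, but the groups overlapped on CPM scaled by TMM. At 24h Ccl7 had 16.7, 74.2, 12.5 and 3.55 TPM, again with replicate 2 highest and replicate 4 lowest. The fitted difference of 24h from 0h was 1.12 (SE 0.69) on the log2 scale and -0.05 (SE 0.50) without replicate 2. Ccl7 at 7d had 16.3, 8.04, 31.7 and 12.3 TPM, overlapping 0h (log2 fold change 0.43, SE 0.70). The ratio of Ccl2 to Ccl7 TPM ran from 0.455 to 3.34 over the 16 libraries.

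The spread at 24h was shared by most of the 10 genes. Replicate 2 was the highest 24h library for 8 of the 10, all but Ccl6 and Ccl9, which were highest in replicate 4. It was the highest of all 16 libraries for 6 of the 10. Without it, Ccl2 ranged from 7.00 to 23.2 TPM and Ccl7 from 3.55 to 16.7 TPM at 24h. Ccl12, a further Ccr2 ligand of the Ccl2 cluster named after its values were seen, had 110 TPM in 24h replicate 2 and 6.35 to 14.5 TPM in the other 3 24h libraries; it did not pass at 24h against 0h (edgeR adjusted p = 0.141).

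**Figure D2:**
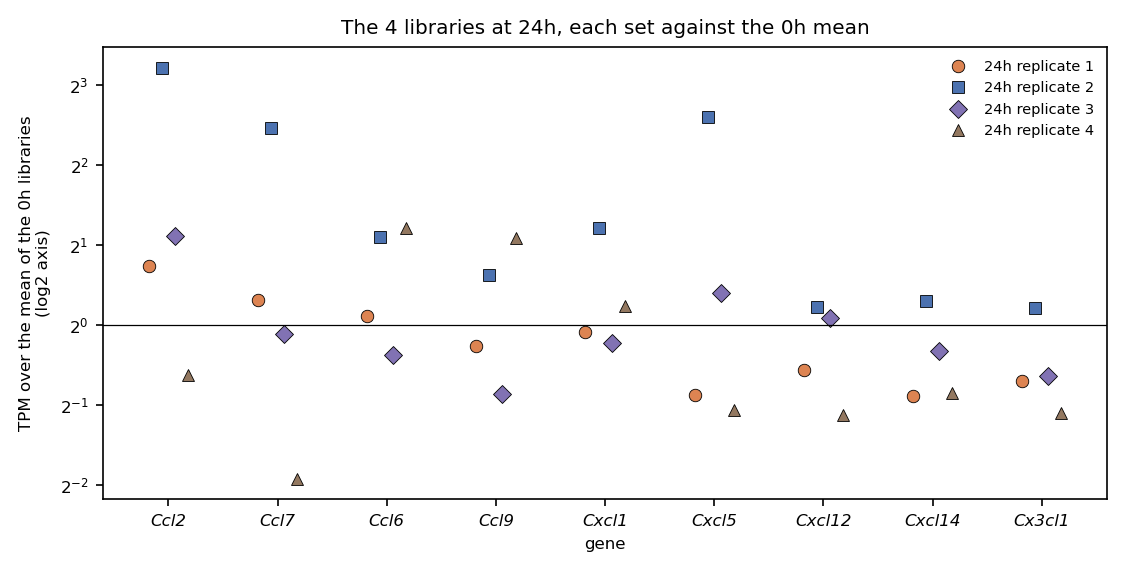
TPM of 9 of the chemokine genes (horizontal axis) in each 24h library over the mean of the 0h libraries (vertical axis, log2 scale); Ccl17, at 0 in all 0h libraries, is not drawn. Each symbol is 1 of the 4 24h libraries. Replicate 2 stands above the 0h mean for all 9 genes, and replicate 4 is lowest for Ccl2, Ccl7, Cxcl5, Cxcl12 and Cx3cl1 but highest for Ccl6 and Ccl9.

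Ccl6 and Ccl9, rodent CC chemokines of myeloid cells that act through Ccr1, were both higher at 3h, by about the same amount. Ccl6 had 131, 89.5, 90.1 and 90.7 TPM at 3h, against 48.0, 54.2, 52.5 and 54.6 TPM at 0h. Its libraries at 3h were all higher, with a log2 fold change of 1.14 (SE 0.35) that did not pass the threshold. Ccl9 had 58.9, 38.1, 41.5 and 35.7 TPM at 3h, against 20.7, 24.4, 30.0 and 24.7 TPM at 0h. Here too the groups did not overlap, and the log2 fold change was 1.002 (SE 0.38), not past the threshold. Without the 2 3h libraries richest in hepatocyte markers these values were 1.34 (SE 0.42) for Ccl6 and 1.18 (SE 0.48) for Ccl9.

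At 24h both genes split the libraries in the same way. Ccl6 had 56.4, 112, 40.1 and 121 TPM, and Ccl9 had 20.7, 38.4, 13.7 and 52.9 TPM, with replicates 2 and 4 high for both. The log2 fold changes of 24h against 0h were 0.89 (SE 0.35) for Ccl6 and 0.58 (SE 0.39) for Ccl9. At 7d Ccl6 had 56.2, 81.4, 46.2 and 44.7 TPM, a log2 fold change from 0h of 0.23 (SE 0.35). Ccl9 at 7d had 15.7, 26.7, 19.7 and 16.3 TPM, a log2 fold change from 0h of -0.24 (SE 0.39). The ratio of Ccl6 to Ccl9 TPM stayed between 1.75 and 3.57 over all libraries, with medians of 2.21 at 0h, 2.29 at 3h, 2.82 at 24h and 2.89 at 7d.

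Neutrophil markers were higher at 3h beside this pair, while the sum of monocyte and macrophage markers overlapped 0h. The summed TPM of 12 neutrophil markers, all in the table, was 148 to 571 at 3h, against 8.97 to 11.7 at 0h, where Ly6g, Ltf and Elane had no counts. Replicate 1 was highest at 3h for these markers, for Ccl6 and for Ccl9, and replicate 4 was highest at 24h, at 330 TPM of a range that began at 67.2. Other 24h libraries did not run alike. Replicates 2 and 3 had neutrophil sums of 112 and 104 TPM, but 112 and 40.1 TPM of Ccl6 and 38.4 and 13.7 TPM of Ccl9. At 7d the neutrophil sum was 15.4 to 106 TPM. Of the 6 neutrophil markers tested, 6 rose at 3h and 4 at 24h against 0h. DESeq2 called 4 higher at 3h and 5 at 24h, and limma 6 and 3. At 3h S100a8 and Il1r2 lost their calls without 0h replicate 1 (edgeR adjusted p of 0.0589 and 0.0505), Csf3r in 4 and Mmp8 in 5 of 8 fits that left out 1 library, while S100a9 and Retnlg kept theirs in all 8. The summed TPM of 16 monocyte and macrophage markers, none at 0 in any group, was 1491 to 1888 at 3h and 1449 to 1763 at 0h. Of its 15 tested genes 3 rose at 3h, C1qa, C1qb and Cd14, each of which lost its call in 6 or 7 of 8 fits that left out 1 library. DESeq2 called 3 of the 15 higher at 3h and limma called 0. The sum of these markers was 1065 to 1660 at 24h and 1402 to 1637 at 7d. The part of either cell type in the levels of Ccl6 and Ccl9 was not tested.

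**Figure D3:**
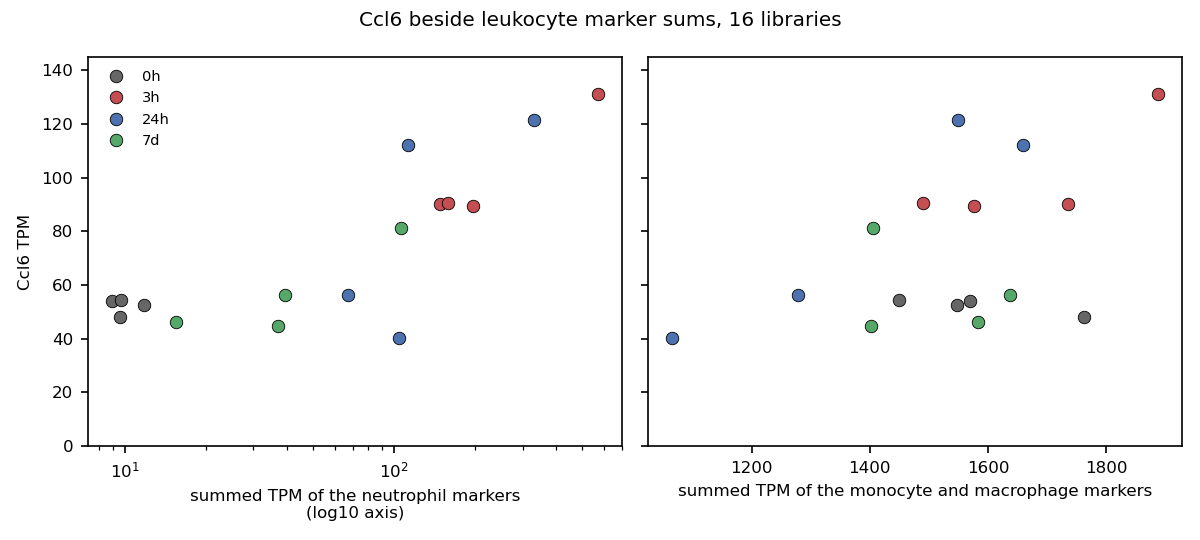
TPM of Ccl6 (vertical axis) against the summed TPM of 12 neutrophil markers (left, log10 axis) and of 16 monocyte and macrophage markers (right) in the 16 libraries, coloured by time. The 3h libraries lie between 148 and 571 TPM of neutrophil markers and the 0h libraries between 8.97 and 11.7 TPM, while the same groups overlap for the monocyte and macrophage markers.

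Ccl17, a ligand of Ccr4 on T cells that dendritic cells and macrophages can make, had no counts at 0h and was counted in every 3h and 24h library. Its counts were 2, 1, 1 and 2 at 3h and 1, 11, 1 and 8 at 24h, against 0 in each 0h library. With the summed 0h count taken as 3 in place of 0, the ratio to 0h was 2.12 at 3h and 6.81 at 24h. The counting error of the 3h and 24h counts is left out, so neither ratio is a lower limit. At 7d 1 count was present in 1 of 4 libraries, so no fold against 0h is given. The ratio of 7d to 24h was 0.0408 (95% counting interval 0.000987 to 0.254, counting error only). Ccl17 reached the filter on low values only through its 24h libraries, so its passing the threshold at 24h against 0h and at 7d against 24h supports nothing. At 7d against 24h it no longer passed without 24h replicate 2 or 4, which held 11 and 8 of the 21 counts at 24h, and without 7d replicate 1 or 4, which held none. The summed TPM of 8 dendritic cell markers was 15.6 to 18.4 at 3h, 13.2 to 19.7 at 24h and 17.3 to 22.3 at 0h. Of the 6 of these markers tested, 1 rose at 24h against 0h, Clec10a, a lectin also found on macrophages (log2 fold change 1.07, SE 0.26, edgeR adjusted p = 0.00695), which kept its call in all 8 fits that left out 1 library. The 3 that fell were Zbtb46, Ciita and Siglech, and they lost their calls in 1, 5 and 7 of those fits, in that order. Zbtb46 lost it without 0h replicate 3, Ciita without 0h replicate 1, 3 or 4 or 24h replicate 1 or 4, and Siglech without any 1 library but 24h replicate 3. The part of dendritic cells in the level of Ccl17 was not tested.

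Cxcl1 and Cxcl5 encode ligands of Cxcr2 that draw neutrophils in the mouse. Cxcl1 had 5.69, 2.75, 2.28 and 4.12 TPM at 3h, against 5.72, 1.03, 3.42 and 5.26 TPM at 0h. The groups overlapped, with a log2 fold change of 0.14 (SE 0.43). Later values also overlapped 0h, with 3.63, 8.94, 3.29 and 4.55 TPM at 24h (0.58 from 0h on the log2 scale, SE 0.42) and 2.54, 4.42, 4.25 and 2.31 TPM at 7d (-0.09 from 0h on the log2 scale, SE 0.42).

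Cxcl5 was close to the detection limit at 3h. The libraries at 3h held 0, 1, 0 and 0 counts, against 9, 3, 6 and 5 at 0h, a ratio of 0.0461 (95% counting interval 0.00112 to 0.284). This interval and those below for Cxcl5 hold counting error only, not the spread between libraries. All 3h libraries were below all 0h libraries. At 24h the counts were 4, 34, 8 and 3, or 0.521, 5.77, 1.26 and 0.458 TPM. The ratio of 24h to 3h was 45.0 (95% counting interval 7.70 to 1813), with no overlap and past the threshold in each of 8 fits that left out 1 library. Without the 2 3h libraries richest in hepatocyte markers this comparison no longer passed. Replicate 2 held 34 of the 49 counts at 24h, and without it the ratio was 17.7 (95% counting interval 2.73 to 747). Against 0h the 24h log2 fold change was 1.17 (SE 0.71), and -0.13 (SE 0.70) without 24h replicate 2. At 7d Cxcl5 had 0.639, 1.36, 2.67 and 0.258 TPM, overlapping 0h.

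Cxcl12, the ligand of Cxcr4 that keeps blood progenitors and lymphocytes in place and is made by stromal and endothelial cells, was lower at 3h. It had 39.8, 46.3, 49.8 and 42.9 TPM at 3h, against 86.8, 72.8, 68.9 and 70.3 TPM at 0h. Every 3h library was below every 0h library, and the log2 fold change of -0.56 (SE 0.16) was past the threshold. It no longer passed when any 1 of the 8 libraries was left out, although the value stayed between -0.60 and -0.51, and it was -0.60 (SE 0.21) and not past the threshold without the 2 3h libraries richest in hepatocyte markers. At 24h Cxcl12 had 50.4, 87.3, 78.9 and 34.2 TPM, on both sides of the 0h range, with a log2 fold change from 0h of -0.07 (SE 0.16). At 7d it had 78.5, 51.2, 64.7 and 71.8 TPM, a log2 fold change from 0h of -0.08 (SE 0.16).

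Marker sums in TPM of cells known to make Cxcl12 were lower at 3h too, without most single markers passing the test. The summed TPM of 8 endothelial markers was 391 to 480 at 3h, against 523 to 699 at 0h. For 7 mural cell markers it was 691 to 846 TPM at 3h, against 931 to 1165 TPM at 0h. For 8 fibroblast markers it was 641 to 673 TPM at 3h, against 684 to 1046 TPM at 0h. TPM as a whole ran low at 3h, where 20.6% of all genes were lower and 3.36% higher than at 0h with no overlap. By edgeR, 1 of the 8 endothelial markers fell at 3h, Kdr (log2 fold change -1.25, SE 0.26, edgeR adjusted p = 0.0146), which lost its call without 0h replicate 1 or 3h replicate 1. DESeq2 called 2 of the 8 lower and limma 1. None of the mural cell or fibroblast markers passed by edgeR, DESeq2 or limma, with 2 of 7 and 4 of 8 at an unadjusted p under 0.05 by edgeR. No marker of these lists was at 0 in any group, and their part in the level of Cxcl12 was not tested.

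Cxcl14, a chemokine made without stimulation by many stromal and epithelial cells, overlapped 0h at every time. It had 77.0, 72.8, 55.7 and 77.7 TPM at 3h, 35.6, 81.0, 52.5 and 36.6 TPM at 24h and 76.2, 51.1, 84.3 and 55.6 TPM at 7d, against 111, 60.5, 41.3 and 50.7 TPM at 0h. The log2 fold changes against 0h were 0.30, -0.17 and 0.11 at 3h, 24h and 7d (SE 0.29 each).

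Cx3cl1, the membrane-bound chemokine fractalkine of endothelial cells, also overlapped 0h at every time. It had 4.84, 4.75, 8.09 and 4.80 TPM at 3h, against 7.81, 9.87, 7.97 and 6.19 TPM at 0h, a log2 fold change of -0.32 (SE 0.22). At 3h only replicate 3 reached the 0h range. At 24h it had 4.88, 9.17, 5.08 and 3.69 TPM (log2 fold change -0.29, SE 0.22) and at 7d 7.12, 9.83, 7.92 and 8.87 TPM (log2 fold change 0.19, SE 0.21).

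**Figure D4:**
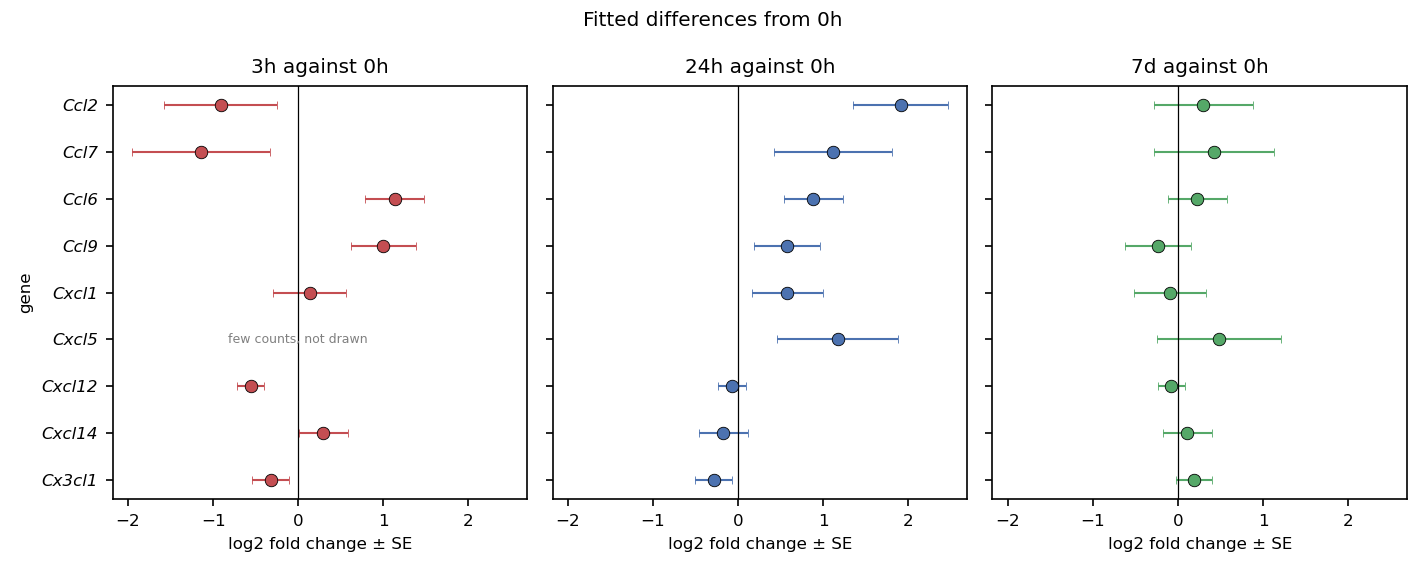
Fitted log2 fold change ± SE (horizontal axis) of 9 chemokine genes (rows) at 3h, 24h and 7d against 0h, which share the same 4 0h libraries. Ccl17, with no counts at 0h, is not drawn, nor is Cxcl5 at 3h, with 1 count. Ccl6 and Ccl9 lie at 1.14 and 1.002 at 3h, Ccl2 lies at 1.91 at 24h, and all values at 7d lie between -0.24 and 0.48.

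All 10 genes passed the filter on low values, a mean of 0.5 TPM over the 16 libraries, but Ccl17 did so only through its 24h libraries, since the other 12 averaged 0.336 TPM. By edgeR's test, 1 of the 10 passed at 3h against 0h, beside 5.04% of all genes, and 2 of the 10 at 24h, beside 17.4%. At 7d 0 of the 10 passed, beside 0.86%, with 0 at an unadjusted p under 0.05 and 0 by DESeq2 or limma. Between later times, 2 of the 10 passed at 24h against 3h, beside 7.58%, and 1 of the 10 at 7d against 24h, beside 8.08%. The groups did not overlap in TPM for 7 of the 10 genes at 3h against 0h, 3 higher and 4 lower, beside 24% of all genes, 3.36% higher and 20.6% lower. On TMM-scaled CPM it was 6 of the 10, 3 higher and 3 lower, beside 21.4% of all genes, 10.4% higher and 10.9% lower. The numbers were 1 of the 10 at 24h against 0h, beside 21.2%, 0 at 7d against 0h, beside 9.98%, 2 at 24h against 3h, beside 11%, and 0 at 7d against 24h, beside 9.42% (1, beside 9.22%, on TMM-scaled CPM). The median log2 fold change of the 10 was -0.09 at 3h, 0.73 at 24h and 0.21 at 7d against 0h, beside 0.00, -0.01 and 0.00 over all genes. Without 24h replicate 2 the median at 24h was 0.09. Since the genes were chosen with these values known, nothing is read from these counts.

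Among the other 31 ligand genes, 17 were tested, and 3 passed at 24h against 0h, a share near the 17.4% of all genes. Cxcl2, a Cxcr2 ligand like Cxcl1, rose at 24h to 1.39 ± 1.29 TPM, against 0.269 ± 0.202 TPM at 0h (SD, n = 4 each; log2 fold change 2.49, SE 0.77, edgeR adjusted p = 0.0280). Cxcl2 reached the filter on low values only through its 24h libraries, so its passing the threshold at 24h supports nothing. Cxcl9, an interferon-induced attractant of T cells, fell to 3.43 ± 2.08 TPM at 24h, against 9.89 ± 2.64 TPM at 0h (log2 fold change -1.36, SE 0.39, edgeR adjusted p = 0.0261). Ccl21a, made by lymphatic endothelium, fell to 72.6 ± 24.0 TPM at 24h, against 126 ± 11.97 TPM at 0h (log2 fold change -0.60, SE 0.18, edgeR adjusted p = 0.0278), and its reads may be shared with near-identical copies.

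These 3 calls each depended on several libraries. Cxcl2 no longer passed without 0h replicate 1, 3 or 4 or 24h replicate 2 or 4, the edgeR adjusted p reaching 0.130 without 24h replicate 2, where the log2 fold change was 1.79. Cxcl9 lost its call without 0h replicate 1 or 3 or 24h replicate 1 or 4, with edgeR adjusted p up to 0.0852. Ccl21a lost its call without 0h replicate 1 or 2 or 24h replicate 1 or 3, with edgeR adjusted p up to 0.0970. At 3h and at 7d against 0h 0 of the 17 passed by edgeR, with 1 at an unadjusted p under 0.05 each time and 0 by DESeq2 or limma. Over all genes the shares that passed by edgeR were 5.04% and 0.86%.

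Of 24 listed receptor genes 12 were tested. At 3h against 0h 2 rose and 1 fell, beside 5.04% of all genes past the threshold. At 24h against 0h 2 rose and 3 fell, beside 17.4% of all genes. At 3h DESeq2 called 1 higher and 2 lower, with Ackr3 added as lower and Cxcr2 given no adjusted p, and limma called 2 higher and 2 lower, again with Ackr3. Ccr1, the receptor of Ccl6 and Ccl9 on neutrophils and monocytes, had 12.4, 9.999, 8.85 and 5.90 TPM at 3h, against 1.59, 2.05, 3.06 and 3.83 TPM at 0h. It rose at 3h with no overlap between the groups (log2 fold change 2.03, SE 0.33, edgeR adjusted p = 0.00206), and it was lower at 24h than at 3h (log2 fold change -1.42, edgeR adjusted p = 0.00777). The fall from 3h to 24h did not pass without the 2 3h libraries richest in hepatocyte markers (log2 fold change -1.47, edgeR adjusted p = 0.0607). Cxcr2, the neutrophil receptor of Cxcl1, Cxcl2 and Cxcl5, had 22, 26, 16 and 17 counts at 3h and 8, 9, 7 and 8 counts at 24h, against 2, 0, 0 and 1 at 0h. The ratios to 0h were 28.6 at 3h (95% counting interval 9.45 to 142, edgeR adjusted p = 0.00318) and 10.4 at 24h (95% counting interval 3.25 to 53.0, edgeR adjusted p = 0.0170). These intervals hold counting error only, not the spread between libraries. Cxcr2 reached the filter on low values only through its 3h libraries, so its passing at 3h, counted above, supports nothing. The call at 24h was lost without 0h replicate 2 (edgeR adjusted p = 0.0509).

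Cx3cr1, the receptor of Cx3cl1 on monocytes and macrophages, fell at 3h to 1.03, 1.65, 1.84 and 0.964 TPM, against 7.44, 5.32, 6.13 and 7.02 TPM at 0h. Its log2 fold change was -2.07 (SE 0.51, edgeR adjusted p = 0.0332), and without any 1 of the 8 libraries the edgeR adjusted p was 0.0565 to 0.110, although the groups did not overlap. Cxcr4, the receptor of Cxcl12, fell at 24h to 6.05 ± 1.15 TPM, against 13.8 ± 3.30 TPM at 0h (SD, n = 4 each; log2 fold change -0.97, SE 0.24, edgeR adjusted p = 0.00700). Ackr3, the scavenging receptor of Cxcl12, fell at 24h to 61.8 ± 15.6 TPM, against 96.2 ± 6.23 TPM at 0h (log2 fold change -0.44, SE 0.10, edgeR adjusted p = 0.00586). Ackr3 was 67.0 ± 1.08 TPM at 3h, below every 0h library without passing (log2 fold change -0.34, edgeR adjusted p = 0.0614). Ackr4, the scavenger of Ccl21 and Ccl19, fell at 24h to 1.59 ± 0.333 TPM, against 5.05 ± 1.52 TPM at 0h (log2 fold change -1.45, SE 0.26, edgeR adjusted p = 0.000916).

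Ccrl2, an atypical receptor that binds chemerin, was the receptor gene other than Cxcr2 that rose at 24h. It had 48.4, 24.5, 22.6 and 39.6 TPM at 24h, against 20.3, 16.2, 19.2 and 14.5 TPM at 0h (difference of 1.20 on the log2 scale, SE 0.23, edgeR adjusted p = 0.00214), and it fell again at 7d against 24h (log2 fold change -1.14, edgeR adjusted p = 0.00431). Ccr2, the receptor of Ccl2 and Ccl7, did not pass against 0h at any time, with edgeR adjusted p = 0.0616 at 24h, although limma called it lower at 24h. It rose at 7d to 4.15 ± 1.57 TPM, against 1.85 ± 0.710 TPM at 24h (log2 fold change 1.05, SE 0.25, edgeR adjusted p = 0.00971). At 7d against 0h 0 of the 12 receptor genes passed by edgeR, with 2 at an unadjusted p under 0.05 and 0 by DESeq2 or limma.

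**Figure D5:**
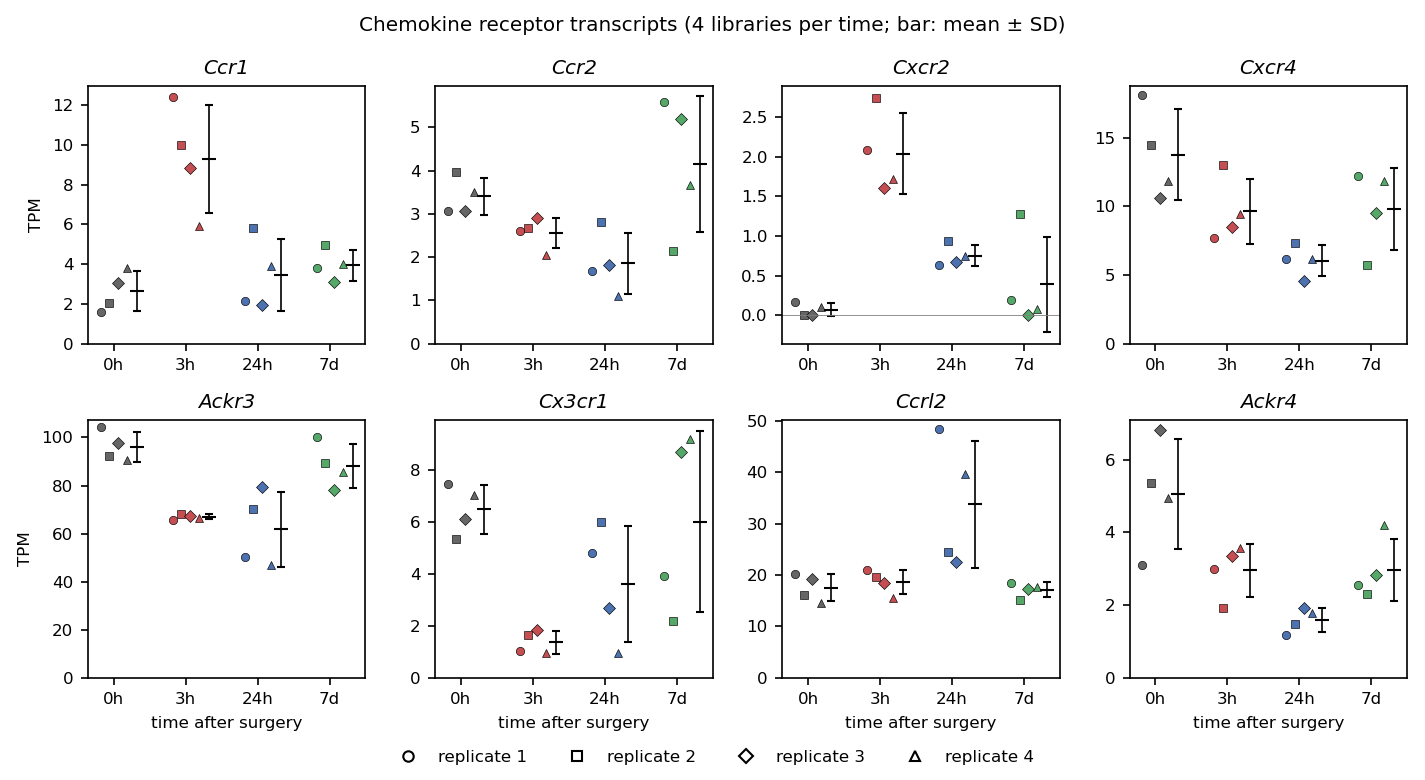
TPM of 8 chemokine receptor genes (vertical axis, 1 panel per gene) by time after surgery (horizontal axis). Points are libraries with 1 symbol per replicate number, and bars are the mean ± SD of 4 libraries. Ccr1 and Cxcr2 libraries at 3h lie above those at 0h, Cx3cr1 libraries at 3h lie below those at 0h, and Cxcr4 and Ackr4 have their lowest mean at 24h.

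Of 16 tested regulators of chemokine genes, 4 rose and 0 fell at 3h against 0h, beside 5.04% of all genes past the threshold. They were drawn from the genes of NF-kappa-B signalling, its co-factors and mRNA decay. DESeq2 called 6 higher and 2 lower, adding Nfkbia and Zfp36 as higher and Nfkb1 and Zfp36l2 as lower, and limma called 5 higher and 1 lower. Cebpd, a transcription factor of the acute phase response, rose to 109 ± 15.6 TPM, against 23.2 ± 6.82 TPM at 0h (SD, n = 4 each; log2 fold change 2.43, edgeR adjusted p = 0.0106). Bcl3, a nuclear co-factor of NF-kappa-B, rose to 22.6 ± 8.83 TPM, against 6.13 ± 0.643 TPM at 0h (log2 fold change 2.08, edgeR adjusted p = 0.00414). Cebpb (log2 fold change 1.21, edgeR adjusted p = 0.0354) and Nfkbiz (log2 fold change 0.84, edgeR adjusted p = 0.0192) rose less. Cebpb lost its call in 7 and Nfkbiz in 4 of 8 fits that left out 1 library, with edgeR adjusted p up to 0.111 for Cebpb without 0h replicate 1, 2 or 4 or any 1 3h library, and up to 0.0930 for Nfkbiz without 0h replicate 1 or 2 or 3h replicate 1 or 3. At 24h 0 of the 16 passed by edgeR, with 3 at an unadjusted p under 0.05, 1 by DESeq2 and 1 by limma, and at 7d 0 passed by each, with 1 at an unadjusted p under 0.05 by edgeR.

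Of 10 cytokines known to induce chemokines, 3 were tested. Il1b rose at 24h to 3.22 ± 2.90 TPM, against 1.24 ± 0.265 TPM at 0h (SD, n = 4 each; log2 fold change 1.53, edgeR adjusted p = 0.0388). Without 24h replicate 2 its log2 fold change was 0.84 (edgeR adjusted p = 0.237), and it also lost its call without any 1 of the 0h libraries or 24h replicate 1, with edgeR adjusted p up to 0.109.

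Of 9 proteases that cut chemokines, 7 were tested. Dpp4, which inactivates Cxcl12, fell at 24h to 1.47 ± 0.300 TPM, against 3.90 ± 1.32 TPM at 0h (SD, n = 4 each; log2 fold change -1.21, edgeR adjusted p = 0.00125), and rose at 7d against 24h (log2 fold change 1.16, edgeR adjusted p = 0.00239). Adam17, which sheds Cx3cl1 from the membrane, fell at 24h (log2 fold change -0.66, edgeR adjusted p = 0.00230). Adam10, a second sheddase of Cx3cl1, fell at 3h (log2 fold change -0.46, edgeR adjusted p = 0.0285) and at 24h (log2 fold change -0.37, edgeR adjusted p = 0.0373). Each of these Adam10 calls was lost without 0h replicate 1, 2 or 4 or replicate 1 or 4 of the later time, with edgeR adjusted p up to 0.111 at 3h and 0.132 at 24h. Mmp8, a neutrophil collagenase that is also among the neutrophil markers above, passed at 3h, though not without any 1 0h library or 3h replicate 1 (edgeR adjusted p up to 0.0882). It passed at 24h, though not without 0h replicate 1, 2 or 3 or 24h replicate 4 (edgeR adjusted p up to 0.1001).

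Genes whose levels ran most alike with each chemokine gene were sought among 11378 genes with a mean of at least 2 TPM, which left Cxcl5 and Ccl17 out of the genes searched, by Pearson's r of log2 CPM over the 16 libraries, which share their times and library sizes, so r is a description with no p. Ccl6 ran most like Pirb (r = 0.959), an inhibitory receptor of myeloid cells, and Ccl9 most like Ms4a6d (r = 0.956), a macrophage membrane protein. Ccl6 and Ccl9 had r = 0.935 with each other, which placed each among the 3 nearest genes of the other. Ccl2 ran most like Cygb (r = 0.857), cytoglobin of fibroblasts and mural cells, and Cxcl5 had Ccl2 as its next nearest gene (r = 0.863) after Zmat1 (r = 0.930). Cxcl12 ran most like S1pr3 (r = 0.960), a sphingosine-1-phosphate receptor of vascular smooth muscle. The nearest genes of Cxcl1, Cx3cl1 and Cxcl14 were Gskip (r = 0.767), Zfp449 (r = 0.771) and Commd7 (r = 0.806), the lowest of the 10.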

How the data were processed

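The deposited table lists 57143 genes with raw counts, TPM and FPKM in 16 libraries. The submitters' processing notes name cutadapt, STAR and mm10. As for versions, the counter and any use of strand, they were not given in the sources used here, so overlapping and near-identical genes are uncertain. Per the labels' protocols, polyA RNA was made into directional libraries. The deposited raw counts, whole numbers and not normalized, were the input of all tests; the deposited TPM, scaled by the authors to gene length and library size, gave the levels, and the authors' deposited FPKM were not used.

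Genes with a mean TPM of at least 0.5 (16866) were scaled by TMM and tested in 1 fit of all 16 libraries with edgeR 4.0.16 (R 4.3.3; quasi-likelihood, robust, no replicate block), with Benjamini-Hochberg adjustment over all genes tested and a threshold of 0.05; "passed", "rose" and "fell" refer to it. Alternatives were DESeq2 1.42.0, limma 3.58.1 on log2 TPM, other filters and scalings, the compared times alone, a replicate block and each library left out. In simulated counts for 16866 genes, edgeR found 80% of 2-fold changes and 98% of 4-fold changes at 3h against 0h, 83% and 96% at 24h, and 82% and 98% at 7d; 5.82%, 3.76% and 2.70% of its calls were false. Folds involving a group of 3 counts or fewer are count ratios scaled by library totals. The smallest library held 8.31 M counts.

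The 10 genes and all gene lists were chosen with earlier results of these data known. Of the other ligands and the receptors every gene that passed in 1 of the 5 comparisons is named, with the receptors of the 10. Of each other list, up to 4 genes of smallest p that passed in a comparison are named. Any gene outside this rule is marked where it is named. Differences between tools are given for some lists and comparisons only, mostly as counts, and not every gene that differs is named. The column names carry another prefix than the sample titles, and columns were matched by time and number.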

Additional observations from a re-analysis of the deposited data

Results flagged for a closer look

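In 6 of 84 groups of 4 libraries, the highest library stood apart from its group by Dixon's test, in which the gap to the nearest library is divided by the group's range and set against the critical value of the 95% level. Some groups stand out in this way by chance alone. No rate is given for it, because groups near 0 lack the normal spread that the test assumes. Ccl6 at 3h had a ratio of 0.972, with 131 TPM in replicate 1 and 90.7 TPM in the next library. Cx3cl1 at 3h had a ratio of 0.973, with 8.09 TPM in replicate 3 and 4.84 TPM in the next. Cxcl5 at 24h had a ratio of 0.849, with 5.77 TPM in replicate 2 and 1.26 TPM in the next. Cxcl5 at 3h and Ccl17 at 7d each had a ratio of 1 because 1 count was present in 1 library, at 0.173 TPM in 3h replicate 2 and 0.485 TPM in 7d replicate 3, and the others were at 0. The receptor Cxcr2 at 7d had a ratio of 0.848, with 1.28 TPM in replicate 2 and 0.195 TPM in the next library.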

How the results depend on the processing

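Counts of the 10 chemokine genes past the threshold moved with the processing. At 3h against 0h, 1 passed in the analysis as reported, 2 with DESeq2, 6 without a filter on low values, 0 with a filter at mean TPM 2, 0 with limma on log2(TPM + 1), 2 with limma on log2(TPM + 0.1), 6 in a fit of the compared times alone, 0 without the 2 3h libraries richest in hepatocyte markers and 0 to 0 with each library left out. At 24h against 0h the count of 2 became 5 without a filter, 1 with the filter at mean TPM 2, 1 with either limma fit, 1 with the compared times alone and 1 to 3 with each library left out. At 24h against 3h the count of 2 became 4 with DESeq2, 6 without a filter, 1 with the filter at mean TPM 2, 1 with limma on log2(TPM + 1), 1 with the compared times alone, 0 without the hepatocyte-rich libraries and 2 to 4 with each library left out. At 7d against 24h the count of 1 became 4 without a filter, 0 with the filter at mean TPM 2, 0 with the compared times alone and 0 to 2 with each library left out, and 1 in place of 0 genes did not overlap on TMM-scaled CPM, an alternative chosen after seeing the data. At 7d against 0h it was 0 in every fit. For the other ligands, the count of 0 at 3h became 1 without a filter and 1 with the compared times alone. The 3 at 24h became 4 with DESeq2, 5 without a filter, 2 with the filter at mean TPM 2 and 0 to 3 with each library left out. The 0 at 7d became 1 without a filter. For the receptors, the 3 at 3h became 4 with either limma fit, 4 with the compared times alone and 2 with the filter at mean TPM 2. It became 2 without the hepatocyte-rich libraries and 2 with each library left out. The 5 at 24h became 7 without a filter, 4 with the filter at mean TPM 2, 6 with either limma fit and 4 to 6 with each library left out. The 0 at 7d became 1 without a filter and 1 with the compared times alone. The filter at mean TPM 2 tested 8 of the 10 genes; the causes of the other changes were not tested. On log2(TPM + 1) the median of all genes shifted by -0.15 at 3h and -0.19 at 24h against 0h, and by -0.08 at 7d, and the genes past the threshold split into 147 higher and 738 lower at 3h and 643 and 2904 at 24h, beside 314 and 536 and 1552 and 1381 with edgeR. Libraries that share a replicate number did not deviate together (Pearson's r -0.122 to 0.055 over 24 pairs), and with the replicate block 1, 2, 0, 2 and 1 of the 10 genes passed in the 5 comparisons, as without it; of the receptors 2 in place of 3 passed at 3h, without Cx3cr1, and of the other ligands 2 in place of 3 at 24h, without Cxcl2. Of 717 alternative fold changes of the 10 genes, 10 moved by more than the spread between libraries, and 32 had the other sign, each of a fold change that did not pass. For Ccl17 and Cxcl5, with 28 and 110 counts in all, depth limits every comparison.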

Other observations

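Direct comparisons of later times showed further changes around the 10 chemokine genes. Cxcl2 was higher at 24h, at 1.39 ± 1.29 TPM, against 0.186 ± 0.222 TPM at 3h (SD, n = 4 each; log2 fold change 2.80, SE 0.81, edgeR adjusted p = 0.0352), and lost its call without 3h replicate 1, 2 or 4 or 24h replicate 2 or 4 (edgeR adjusted p up to 0.154). This call was also lost without the 2 3h libraries richest in hepatocyte markers (edgeR adjusted p = 0.156). Cxcl2 reached the filter on low values only through its 24h libraries, so the call supports nothing. Ackr3, the scavenger of Cxcl12, rose at 7d to 88.3 ± 9.21 TPM, against 61.8 ± 15.6 TPM at 24h (log2 fold change 0.41, SE 0.10, edgeR adjusted p = 0.0153), and lost its call without 24h replicate 1 or 4 or 7d replicate 1 (edgeR adjusted p up to 0.0609). Adam17, a sheddase of Cx3cl1, rose at 7d to 17.5 ± 3.28 TPM, against 11.8 ± 3.46 TPM at 24h (log2 fold change 0.48, SE 0.14, edgeR adjusted p = 0.0301), and lost its call without 24h replicate 1 or 4 or 7d replicate 3 or 4 (edgeR adjusted p up to 0.113).

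Set against 3h, several regulators, receptors and proteases also differed at 24h. Zfp36l1, which speeds decay of AU-rich mRNA, rose to 91.0 ± 29.0 TPM at 24h, against 49.7 ± 3.45 TPM at 3h (SD, n = 4 each; log2 fold change 0.90, SE 0.18, edgeR adjusted p = 0.00517), and passed in all 8 fits that left out 1 library. Bcl3 fell to 9.87 ± 6.20 TPM at 24h, against 22.6 ± 8.83 TPM at 3h (log2 fold change -1.22, edgeR adjusted p = 0.0300), and Cebpd fell to 34.0 ± 19.0 TPM at 24h, against 109 ± 15.6 TPM at 3h (log2 fold change -1.62, edgeR adjusted p = 0.0404). Bcl3 lost its call without 3h replicate 1 or 2 or 24h replicate 1, 3 or 4, and Cebpd without any 1 library but 24h replicate 4. Ccrl2 rose to 33.8 ± 12.4 TPM at 24h, against 18.6 ± 2.34 TPM at 3h (log2 fold change 0.93, edgeR adjusted p = 0.0175), and lost its call without 3h replicate 3 or 4 or 24h replicate 1. Ackr4 fell to 1.59 ± 0.333 TPM at 24h, against 2.96 ± 0.734 TPM at 3h (log2 fold change -0.87, edgeR adjusted p = 0.0492), but not without 3h replicate 1, 3 or 4 or 24h replicate 1 or 2. Neither Ccrl2 nor Ackr4 passed without the 2 3h libraries richest in hepatocyte markers (edgeR adjusted p of 0.157 and 0.0758). Dpp4 fell to 1.47 ± 0.300 TPM at 24h, against 2.71 ± 0.193 TPM at 3h (log2 fold change -0.86, edgeR adjusted p = 0.0250), but not without replicate 1 or 2 of either time. The membrane protease Mmp14 rose to 15.3 ± 3.93 TPM at 24h, against 10.8 ± 0.898 TPM at 3h (log2 fold change 0.52, edgeR adjusted p = 0.0474), and lost its call in 6 of 8 such fits, all but those without 3h replicate 1 or 24h replicate 3.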
